A study of Mus musculus with 12 samples.

Results

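The genes described here were *Igf1*, the receptors *Igf1r* and *Igf2r*, and 6 genes of insulin-like growth factor (IGF) binding proteins, *Igfbp2* to *Igfbp7*, in the developing mouse lung. They were chosen by name, and all 9 were found among the 16152 genes of the count table and passed the filter on low counts. IGF1 is a secreted growth factor that signals through the receptor tyrosine kinase IGF1R to the PI3K, AKT and mTOR proteins, which promote cell growth and survival. IGF2R, also known as the mannose 6-phosphate receptor, takes up IGF2 and delivers it to lysosomes, and so acts as a clearance receptor. The IGF binding proteins hold IGFs outside the cell, where they can prolong the half-life of the ligand, block its access to the receptor or, after cleavage by proteases, release it. In the lung IGF signalling is known for its part in the growth of the mesenchyme and in the formation of alveoli.

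Whole lungs of wild type C57BL/6 mice of both sexes were sequenced at the embryonic days E15.5 and E18.5 and at postnatal days 5 and 8 (P5 and P8). Each time-point had 3 libraries, 12 in all, and no group carried a treatment or a modified allele. The 3 animals of a time-point were litter mates, so that litter and time-point cannot be told apart, and the p-values measure the spread between litter mates. Between 41337443 and 53901957 reads per library were counted on genes, of which the 9 IGF genes took between 0.199% and 0.269%. Levels are given as CPM, the reads of a gene scaled to a fixed number of mapped reads per library, and fold changes, with their standard error (SE) and false discovery rate (FDR), come from edgeR's quasi-likelihood test over 15994 genes. A gene rose or fell where its FDR was under 0.05, and passed both cutoffs where its log2 fold change was also above 1 in size. Genes of lung epithelium summed to between 893 and 1429 CPM in the 12 libraries. Genes of neighbouring organs stood high in some libraries. Those of heart muscle summed to 933 and 1169.9 CPM in E15.5 replicates 1 and 2 and to between 51.3 and 313 CPM in the other 10 libraries. Genes of the thymus summed to 36.6 CPM in E15.5 replicate 2 and to 221 and 421 CPM in P8 replicates 1 and 2, and to between 4.11 and 23.3 CPM elsewhere.

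A short stretch of the coding sequence shows what the binding proteins share. Their N-terminal domain, which contacts the ligand, is rich in cysteine, and 5 of the 6 genes held one run of 7 codons in the order cysteine, glycine, cysteine, cysteine, any, any, cysteine. The 21 bases are given 5′ to 3′ with the 4 cysteine codons (TGC or TGT) in capitals, as read from the longest coding transcript in GENCODE vM21 on GRCm38, the same build as mm10.
Igfbp2: TGCggcTGCTGCtccgtgTGC
Igfbp3: TGCggcTGCTGCctgactTGC
Igfbp4: TGCggtTGTTGCgccactTGC
Igfbp5: TGTggcTGCTGCatgactTGC
Igfbp7: TGCgggTGCTGCccggtgTGT
Each lay in exon 1 of its gene, at chr1:72824781-72824801 (plus strand) for *Igfbp2*, chr11:7213566-7213586 (minus strand) for *Igfbp3*, chr11:99041653-99041673 (plus strand) for *Igfbp4*, chr1:72873966-72873986 (minus strand) for *Igfbp5* and chr5:77407826-77407846 (minus strand) for *Igfbp7*. *Igfbp6*, the shortest of the 6, held no such run, and 16 of its 238 codons were TGC or TGT. The other 5 genes had 18 to 20 such codons among 254 to 313. Among 21429 coding genes searched on the coding strand and in frame, 34 held the run (0.159%).

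Between the last embryonic and the first postnatal time-point, the IGF genes moved in both directions. *Igfbp7* was 13.8-fold higher and *Igfbp6* 2.64-fold higher at P5 than at E18.5, while *Igf2r* was 2.64-fold lower. These 3 of 9 genes passed both cutoffs from E18.5 to P5, where 26.8% of all genes tested did so (17.5% upwards and 9.34% downwards). Counted by FDR alone, *Igfbp4*, *Igfbp6* and *Igfbp7* rose, *Igf1*, *Igf2r*, *Igfbp2* and *Igfbp5* fell, and *Igf1r* and *Igfbp3* did not pass (7 of 9, where 71.1% of all genes passed, 35.4% upwards and 35.7% downwards). The median log2 fold change of the 9 genes was -0.09, and that of all genes was -0.0024. In the days before birth, E15.5 to E18.5, edgeR called 0 of the 9 past both cutoffs, as did DESeq2 and limma-voom. Of all genes, edgeR called 3.04% (1.59% upwards and 1.46% downwards). An unadjusted edgeR p under 0.05 was found for 7 of the 9 and for 5755 of the 15994 genes tested. *Igf1*, *Igf1r* and *Igfbp7* rose at the FDR alone in that interval (3 of 9, where 21.5% of all genes passed, 11.6% upwards and 9.87% downwards). From P5 to P8, *Igfbp5* and *Igfbp6* passed both cutoffs upwards (2 of 9, where 2.96% of all genes passed, 2.88% upwards and 0.0875% downwards). *Igf1* fell at the FDR alone in that interval, which made 3 of 9 genes past it (18.0% of all genes, 9.75% upwards and 8.21% downwards). RNA was measured in whole lung, where fewer cells of a type and less RNA per cell cannot be told apart.

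**Figure D1:**
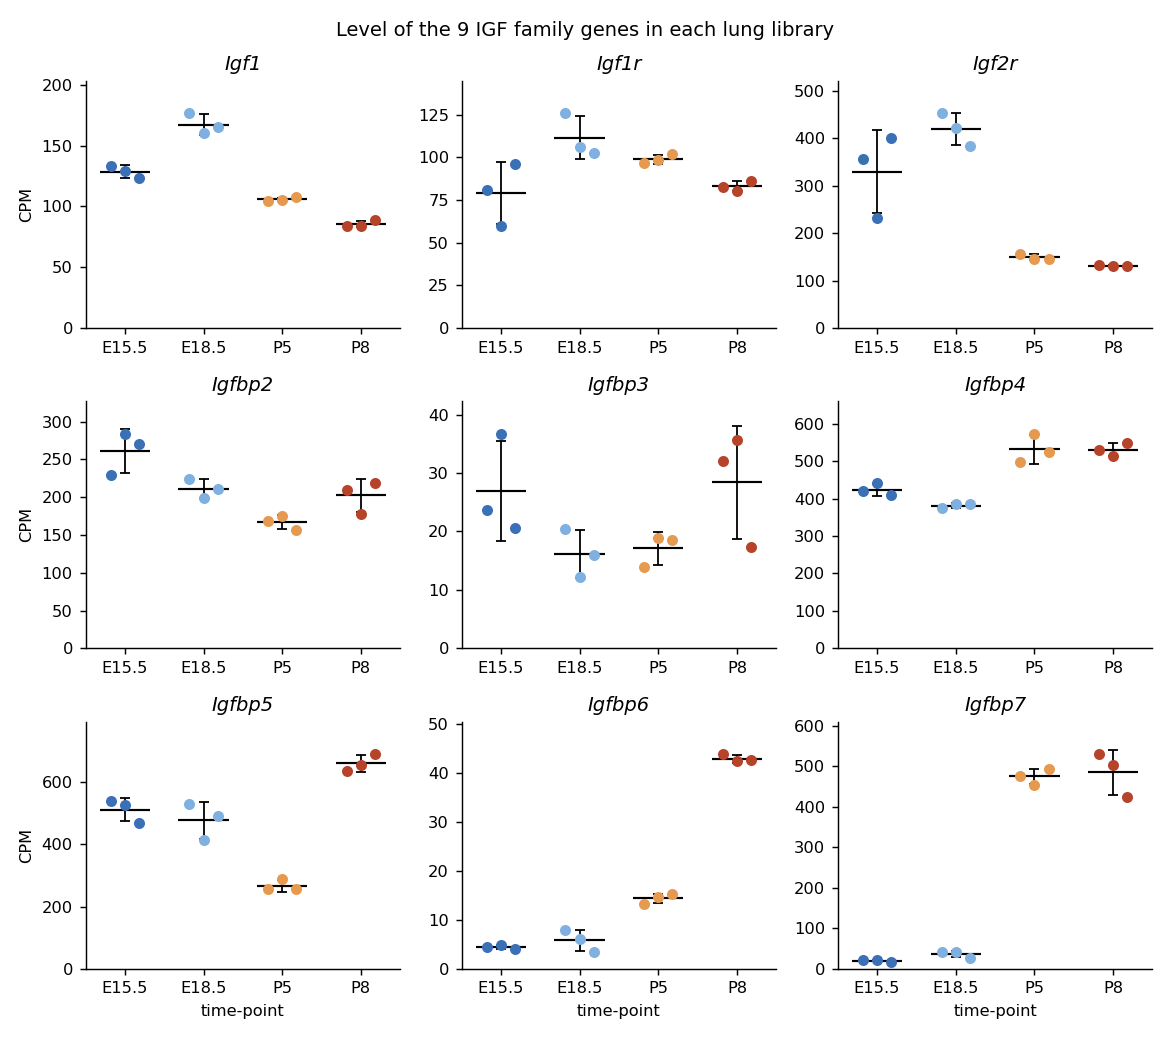
Level of each of the 9 genes in CPM (vertical axis, from 0) at the 4 time-points, with 1 point per library, the mean as a line and ± 1 SD over 3 libraries as error bars. *Igfbp7* stands between 17.8 and 41.3 CPM in the 6 embryonic libraries and between 423 and 531 CPM in the 6 postnatal libraries, and *Igf2r* falls from between 231 and 453 CPM to between 130.5 and 157 CPM.

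*Igf1* (ENSMUSG00000020053.18, chr10:87858265-87937042 on GRCm38), the ligand, was highest at E18.5 among the 4 time-points sampled. It was at 134, 129 and 123 CPM in E15.5 replicates 1, 2 and 3, at 177, 160.1 and 165 CPM at E18.5, at 105, 105 and 108 CPM at P5 and at 84.2, 84.0 and 88.7 CPM at P8. The libraries of the 4 time-points did not overlap, and every neighbouring pair in the order E18.5, E15.5, P5, P8 differed past the FDR threshold. *Igf1* rose 1.31-fold from E15.5 to E18.5 (log2 fold change 0.39, SE 0.0547, edgeR FDR = 0.00127). It fell 1.49-fold from E18.5 to P5 (log2 fold change -0.57, SE 0.0549, edgeR FDR = 1.27e-06) and 1.25-fold further to P8 (log2 fold change -0.32, SE 0.0549, edgeR FDR = 0.00411). Without the 3 libraries highest in thymus genes, which leaves 1 library at P8 with the spread taken from the other groups, the last of these changes was -0.28 and no longer past the threshold (edgeR FDR = 0.0919). *Igf1* was also among the least variable of the 9 genes, with an SD between 1.36% and 5.09% of its mean at each time-point.

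*Igf1* is not the only IGF ligand of the lung. *Igf2*, the fetal ligand, which is imprinted and transcribed from the paternal allele, was at 1535, 1708 and 1249 CPM at E15.5, at 1554, 1409 and 1343 CPM at E18.5, and at 93.05, 97.5 and 107 CPM at P5. Set against each other per length of exon, *Igf2* was 20.1 ± 2.69 times (SD, n = 3) the level of *Igf1* at E15.5, 14.8 ± 0.662 times at E18.5 and 1.62 ± 0.0906 times at P5. At P8 the ratio was 3.62 ± 1.53, and *Igf2* stood at 237 and 199 CPM in replicates 1 and 2, those with the high thymus sums, and at 97.9 CPM in replicate 3. The size of these ratios depends on the length used, here 9904 bases of exon for *Igf1* and 5723 for *Igf2*. The *Igf1* transcript with the longest coding sequence has 2292 bases.

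Of the receptors, *Igf2r* (ENSMUSG00000023830.13, chr17:12682406-12769664) changed most. It was at 356, 231 and 401 CPM at E15.5, at 453, 422 and 384 CPM at E18.5, at 157, 145 and 146 CPM at P5 and at 133, 131 and 130.5 CPM at P8. All 6 embryonic libraries lay above all 6 postnatal ones. From E18.5 to P5 it fell by 1.40 on the log2 scale (SE 0.157, edgeR FDR = 5.12e-06), while those from E15.5 to E18.5 (0.36, edgeR FDR = 0.117) and from P5 to P8 (-0.20, edgeR FDR = 0.382) did not pass the threshold. *Igf2r* is itself imprinted in the mouse, with the maternal allele active in most tissues, and the antisense RNA *Airn* silences the paternal copy. *Airn* shares no exonic base with *Igf2r* in the annotation, and it was covered by 304 to 851 reads in a library, against 6457 to 22079 reads on *Igf2r*.

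*Igf1r* (ENSMUSG00000005533.10, chr7:67952827-68233668), the signalling receptor, changed by less than the fold cutoff in every comparison. It was at 80.9, 59.8 and 96.3 CPM at E15.5, at 126, 106 and 103 CPM at E18.5, at 96.4, 98.2 and 102 CPM at P5 and at 82.9, 80.03 and 86.1 CPM at P8. No neighbours in the order E18.5, P5, P8, E15.5 differed past the threshold. Its level at P5 was above that at E15.5 (log2 fold change 0.41, edgeR FDR = 0.0157). At P8 it was below that at E18.5 (log2 fold change -0.36, edgeR FDR = 0.0324). *Igf1r* also rose from E15.5 to E18.5 (log2 fold change 0.50, SE 0.138, edgeR FDR = 0.0227). The rise kept a similar size but was no longer past the threshold without E15.5 replicate 1 (0.51, edgeR FDR = 0.0548), without E18.5 replicate 1 (0.40, edgeR FDR = 0.0982) or with only the libraries of E15.5 and E18.5 in the fit (0.51, edgeR FDR = 0.0637). It was smaller and also not past the threshold without the 2 libraries highest in heart muscle genes, which leaves 1 library at E15.5 (0.21, edgeR FDR = 0.321). E15.5 replicate 2 was the lowest of its time-point for both receptors. In the same library, genes with 8000 or more bases of exon had a median deviation of -0.08 from the mean of their time-point on the log2 scale, against 0.02 for shorter genes. Both receptors are in the longer class, and the part of this in their level was not tested.

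The ratio of the receptors also differed between embryonic and postnatal lungs. Per length of exon, *Igf2r* was 7.47 ± 0.488 times (SD, n = 3) the level of *Igf1r* at E15.5 and 6.81 ± 0.347 times at E18.5. At P5 it was 2.73 ± 0.181 times and at P8 2.86 ± 0.111 times the level of *Igf1r*. The ratio was between 6.49 and 7.95 in the 6 embryonic libraries and between 2.59 and 2.95 in the 6 postnatal ones. Its size, but not its change over time, depends on the length used. The exons span 16791 bases for *Igf1r* and 9308 for *Igf2r*. The transcript with the longest coding sequence has 11409 and 8887 bases.

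**Figure D2:**
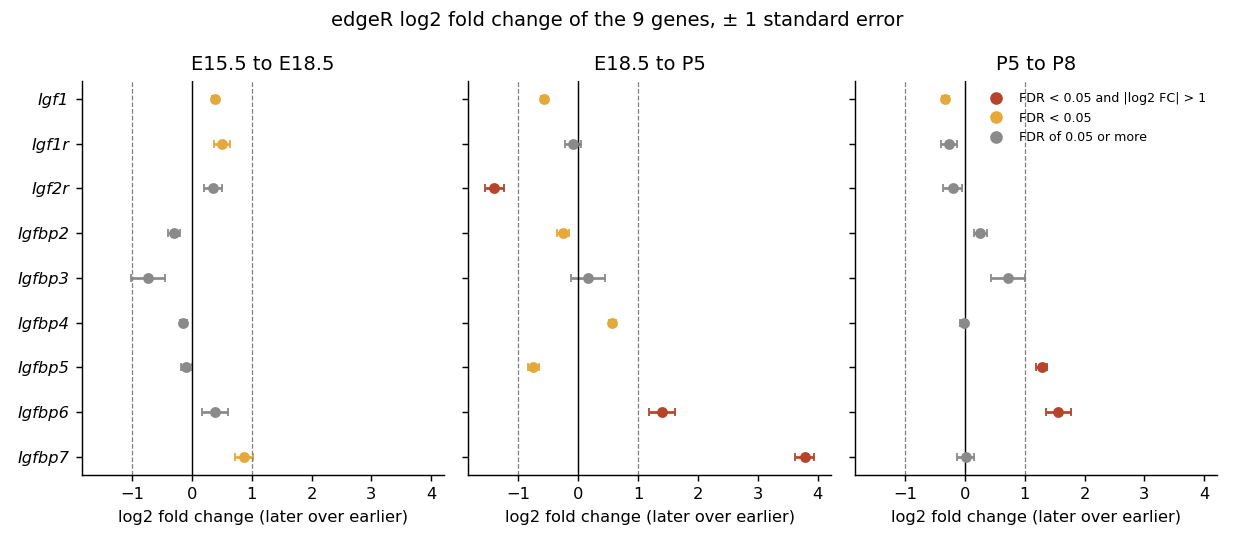
edgeR log2 fold change of each gene (horizontal axis, later over earlier time-point) in the 3 adjacent comparisons, with ± 1 standard error and dashed lines at 1 and -1. The changes from E15.5 to E18.5 lie within the dashed lines, *Igfbp7* (3.78), *Igfbp6* (1.40) and *Igf2r* (-1.40) lie outside from E18.5 to P5, and *Igfbp5* (1.29) and *Igfbp6* (1.56) from P5 to P8.

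Among the binding proteins *Igfbp7* (ENSMUSG00000036256.13, chr5:77349240-77408041) had the largest change of the 9 genes. Its product binds IGFs more weakly than the classical binding proteins and is deposited in the matrix around blood vessels. *Igfbp7* was at 21.2, 21.2 and 17.8 CPM at E15.5, at 41.3, 41.3 and 27.4 CPM at E18.5, at 477, 455 and 494 CPM at P5 and at 531, 504 and 423 CPM at P8. It rose before birth (log2 fold change 0.88, SE 0.150, edgeR FDR = 0.00272) and again from E18.5 to P5 (log2 fold change 3.78, SE 0.162, edgeR FDR = 2.65e-09). Only 2.99% of all genes tested changed by as much in the second interval. P5 and P8 overlapped and did not differ past the threshold (log2 fold change 0.02, edgeR FDR = 0.952). The gene *Polr2b* on the opposite strand shares 85 exonic bases with *Igfbp7*. *Polr2b* was covered by 5233 to 6306 reads in an E18.5 library and by 3064 to 4157 reads in a P5 library.

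Markers of some cell types rose beside *Igfbp7*, and those of others fell. All 8 endothelial markers rose from E18.5 to P5, with a median log2 fold change of 1.18, and their sum went from between 1217 and 1301 CPM to between 2776 and 2929 CPM. All 6 immune markers rose as well, from sums of 81.6 to 92.9 CPM to sums of 2352 to 2953 CPM. No endothelial or immune marker was without reads in any library. At the FDR, 4 of 8 mesenchymal markers rose and 1 fell, and 3 of 5 smooth muscle markers rose. Of 4 mesothelial markers 3 rose and 1 fell. Of 6 epithelial markers 1 rose and 4 fell, and all 5 genes of proliferation fell. Over all genes tested, 35.4% rose and 35.7% fell in that interval. The part of any of these cell types in the rise of *Igfbp7* was not tested.

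*Igfbp6* (ENSMUSG00000023046.6, chr15:102144362-102149511), whose product prefers IGF2 over IGF1, climbed in both later intervals. Per length of exon it had the lowest mean of the 9 genes at E15.5 (4.47 ± 0.356 CPM per kb, SD, n = 3), overlapping *Igf1r* (5.26 ± 1.25 CPM per kb). It was at 4.50, 4.80 and 4.05 CPM at E15.5, at 7.88, 6.05 and 3.42 CPM at E18.5, at 13.3, 14.6 and 15.3 CPM at P5 and at 43.9, 42.4 and 42.6 CPM at P8. The embryonic groups overlapped, and each of the later groups lay above all earlier libraries. It rose 2.64-fold from E18.5 to P5 (log2 fold change 1.40, SE 0.216, edgeR FDR = 8.09e-05) and 2.95-fold from P5 to P8 (log2 fold change 1.56, SE 0.210, edgeR FDR = 0.00139). Over the whole course from E15.5 to P8 it was 10.2-fold higher (log2 fold change 3.35, SE 0.228, edgeR FDR = 4.46e-08), next to 25.6-fold for *Igfbp7*. These 2 genes and *Igf2r* (-1.25) passed both cutoffs from E15.5 to P8, where 32.3% of all genes did so.

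*Igfbp5* (ENSMUSG00000026185.8, chr1:72857932-72874884), whose product binds the extracellular matrix as well as IGFs, dipped at P5. It was at 538, 527 and 468 CPM at E15.5, at 530.0, 413 and 489.9 CPM at E18.5, at 255, 289 and 258 CPM at P5 and at 635, 656 and 690.3 CPM at P8. The embryonic groups overlapped, all P5 libraries lay below them and all P8 libraries above them. *Igfbp5* fell 1.69-fold from E18.5 to P5 (log2 fold change -0.75, SE 0.0900, edgeR FDR = 9.27e-06) and rose 2.44-fold from P5 to P8 (log2 fold change 1.29, SE 0.0909, edgeR FDR = 5.14e-05). By p-value the rise ranked 2 of 15994 genes in that comparison, and no single library left out took it below either cutoff (log2 fold change between 1.24 and 1.32).

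From P5 to P8, marker sums of several cell types moved beside *Igfbp5* and *Igfbp6*. All 4 mesothelial markers rose, from sums of 105 to 172 CPM to sums of 442 to 491 CPM. Of the 8 mesenchymal markers 4 rose and 2 fell, with sums of 6173 to 7035 CPM at P5 and 8249 to 8759 CPM at P8. None of these markers was without reads in any library, and their part in the rise of *Igfbp5* and *Igfbp6* was not tested. All 4 liver markers that passed the filter also rose, with sums over the 6 listed of 2.25 to 3.06 CPM at P5 and 11.3 to 109 CPM at P8, and 3 of 6 immune and 3 of 6 epithelial markers rose at the FDR. Of 9 thymus markers tested 7 rose, with sums over the 10 listed of 14.2 to 20.5 CPM at P5 and 23.3 to 421 CPM at P8. Of 8 endothelial markers 2 fell, and of 5 genes of proliferation 1 fell. Over all genes tested, 9.75% rose and 8.21% fell in that interval. The part of these cell types and organs was not tested either.

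*Igfbp4* (ENSMUSG00000017493.12, chr11:99041244-99054392), an inhibitor of IGF action that is cleaved by the protease PAPP-A, rose from E18.5 to P5 by less than the fold cutoff. It was at 420.2, 441 and 409.5 CPM at E15.5, at 375, 384 and 385 CPM at E18.5, at 498, 573 and 523 CPM at P5 and at 530.0, 513 and 547 CPM at P8. All postnatal libraries lay above all embryonic ones, and P5 and P8 overlapped. Between E18.5 and P5 its log2 fold change was 0.56 (SE 0.0584, edgeR FDR = 2.56e-06).

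*Igfbp2* (ENSMUSG00000039323.18, chr1:72824503-72852474), a binding protein abundant in fetal tissues, had its highest mean at E15.5. It was at 229, 284 and 271 CPM at E15.5, at 224, 199.6 and 211 CPM at E18.5, at 169, 175 and 157 CPM at P5 and at 209.8, 178 and 219 CPM at P8. The change from E15.5 to E18.5 was not past the threshold in edgeR (log2 fold change -0.30, edgeR FDR = 0.0545, and 0.0291 in DESeq2). *Igfbp2* fell from E18.5 to P5 (log2 fold change -0.25, SE 0.102, edgeR FDR = 0.0405), a change close to the threshold. Without E18.5 replicate 1 or 3 or P5 replicate 2 or 3 it was between -0.28 and -0.20 and not past the threshold (edgeR FDR between 0.0613 and 0.142). *Igfbp2* and *Igfbp5* are neighbours on chromosome 1, facing each other with 5457 bases between their ends. From P5 to P8 the log2 fold change of *Igfbp2* was 0.26 (edgeR FDR = 0.0940, and 0.0478 in DESeq2), next to 1.29 for *Igfbp5*, and the difference between the genes was not tested.

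*Igfbp3* (ENSMUSG00000020427.11, chr11:7206086-7213923), whose product is the main carrier of IGFs in serum, varied widely among litter mates. It was at 23.6, 36.7 and 20.6 CPM at E15.5, at 20.4, 12.3 and 16.0 CPM at E18.5, at 13.9, 18.9 and 18.51 CPM at P5 and at 32.1, 35.7 and 17.4 CPM at P8. The SD was between 16.2% and 34.1% of the mean at each time-point. No adjacent comparison passed the threshold (edgeR FDR = 0.0830, 0.626 and 0.0932). Without P8 replicate 3, the lowest of its time-point, the log2 fold change from P5 to P8 was 0.97 in place of 0.72 (edgeR FDR = 0.0136), and that from E15.5 to E18.5 was -0.71 in place of -0.73 (edgeR FDR = 0.0345). The 3 libraries with the highest *Igfbp3*, which were E15.5 replicate 2 and P8 replicates 1 and 2, were also those with the highest thymus sums. Their skeletal muscle genes summed to 43.2, 465 and 125 CPM, against 3.94 to 139 CPM in the other 9 libraries. Without those 3 libraries, only P8 replicate 3 is left at P8, and its 17.4 CPM lies within the range of the P5 libraries. The part of other organs in the level of *Igfbp3* was not tested.

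**Figure D3:**
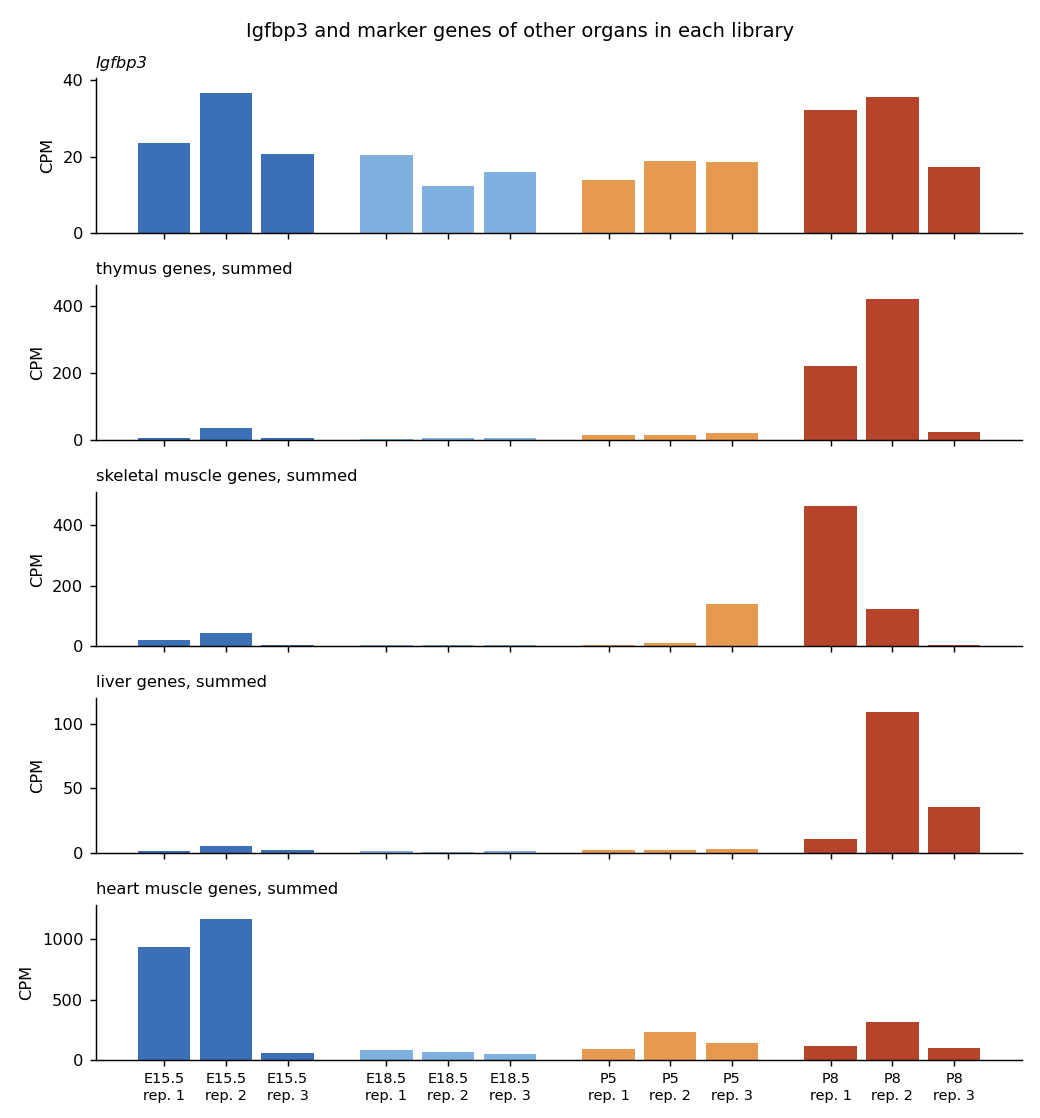
Level of *Igfbp3* (top, CPM) and summed level of marker genes of thymus (10 genes), skeletal muscle (5), liver (6) and heart muscle (5) in each of the 12 libraries, coloured by time-point. The libraries highest in *Igfbp3*, E15.5 replicate 2 (36.7 CPM), P8 replicate 2 (35.7 CPM) and P8 replicate 1 (32.1 CPM), are those with the highest thymus sums.

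The makeup of the binding protein transcripts differed between embryonic and postnatal lungs. Per length of exon, the 6 genes summed to 393 ± 23.0 CPM per kb (SD, n = 3) in E15.5 lungs and 361 ± 24.8 CPM per kb in E18.5 lungs. After birth the sum was 795 ± 13.5 CPM per kb at P5 and 931 ± 71.2 CPM per kb at P8. *Igfbp7* made up 4.72% ± 0.441 of this sum at E15.5 and 9.44% ± 2.003 at E18.5. Its share was 58.97% ± 2.27 at P5 and 50.8% ± 3.66 at P8, the largest of the 6 genes at both. *Igfbp2*, the largest share before birth, went from 40.2% ± 3.14 at E15.5 and 35.7% ± 0.618 at E18.5 to 13.6% ± 0.829 at P5 and 13.9% ± 1.78 at P8. *Igfbp5* took 24.7% ± 2.04 of the sum at E18.5 and 6.67% ± 0.454 at P5, and 14.0% ± 1.27 in the P8 lungs. Its own level was higher at P8 (129.5 ± 3.84 CPM per kb) than at E18.5 (89.4 ± 11.8 CPM per kb). *Igfbp4* went from 27.0% ± 1.90 at E18.5 to 18.0% ± 1.22 at P5, although its own level rose. *Igfbp6* reached 4.90% ± 0.174 at P8 and *Igfbp3* was between 0.819% and 2.43% at every time-point. Every embryonic library had a share of *Igfbp7* of at most 11.1% and every postnatal library one of at least 46.6%. These shares count transcripts per length of the union of annotated exons, and say nothing of protein.

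**Figure D4:**
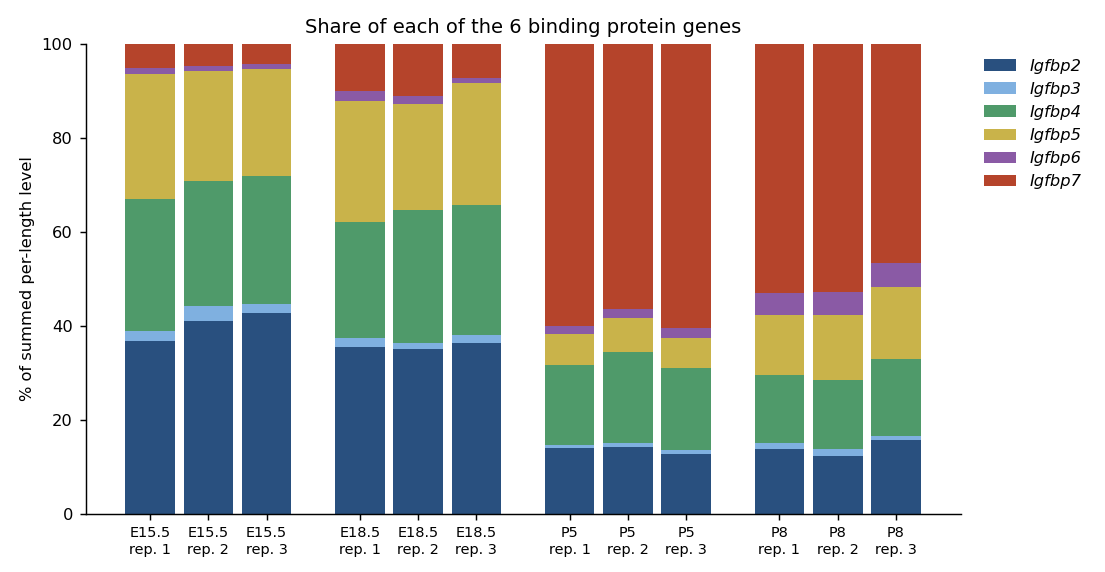
Share of each of the 6 binding protein genes in their summed level per length of exon (vertical axis, %) in each of the 12 libraries. *Igfbp7* takes between 4.30% and 11.1% in the embryonic libraries and between 46.6% and 60.5% in the postnatal ones, where *Igfbp2* takes between 12.3% and 15.8%.

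Over the 12 libraries, Pearson's r of log2(CPM + 1) between members is a description, since the 3 libraries of a time-point share a litter. *Igf1* and *Igf2r* moved together (r = 0.92), as did *Igfbp6* and *Igfbp7* (r = 0.89) and *Igfbp4* and *Igfbp7* (r = 0.89), and *Igf2r* and *Igfbp4* ran opposite (r = -0.97). Among 10619 genes with a mean of at least 10 CPM, the profiles nearest to *Igf1* were those of *Bivm* (r = 0.99), *Rlim* (r = 0.98), *Npat* (r = 0.98), *Pkp4* (r = 0.98) and *Rpl37* (r = 0.98). By Spearman's rho the 5 nearest were all other genes (0 shared). The genes nearest to *Igf1r* were *Ankrd11*, *Fat4* and *Btbd7* (r between 0.94 and 0.95), and those nearest to *Igf2r* were *Fbn2*, *Frem2* and *Zfp462* (r = 0.990 to 0.995). *Fbn2*, which encodes the fetal microfibril protein fibrillin-2, went from 407 CPM at E18.5 to 41.1 CPM at P5. The nearest to *Igfbp7* were *S100a6*, *Clec3b* and *Ly6a* (r = 0.998 each), and those nearest to *Igfbp6* were *Dusp1*, *Pdcd6ip* and *Sbno2* (r = 0.99 each). For *Igfbp4* they were *Slc39a13*, *Rab31* and *Plat* (r = 0.98 to 0.99), for *Igfbp5* *Cercam*, *Rspo1* and *Gsr* (r = 0.94 to 0.96) and for *Igfbp2* *Ercc1*, *Map1s* and *Gm17383* (r = 0.93 to 0.94). *Igfbp3* had no close neighbour, and *Agfg2*, *Idh3b* and *Pcca* came nearest (r = 0.84 to 0.87).

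The other genes of the pathway were taken from lists of ligands, receptors, binding proteins, proteases, adaptors and kinases. Of the 47 listed besides the 9 genes, 41 passed the filter. From E18.5 to P5, 7 of these 41 passed both cutoffs upwards and 4 downwards, where 17.5% and 9.34% of all genes did so, and 15 rose and 11 fell at the FDR alone (35.4% and 35.7% of all genes). From E15.5 to E18.5 only *Pappa2* passed both cutoffs (-1.17, SE 0.187, edgeR FDR = 0.00206), where 3.04% of all genes did so. From P5 to P8 none did in edgeR (2.96% of all genes). At the FDR alone 4 were higher and 7 lower in that interval (9.75% and 8.21% of all genes). There 20 of the 41 had an unadjusted edgeR p under 0.05, as had 5434 of the 15994 genes tested.

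The enzymes that release IGFs from their binding proteins, with their inhibitors, were all past both cutoffs from E18.5 to P5 (5 of 5, where 26.8% of all genes passed), in both directions. *Htra1*, a serine protease that cleaves IGF binding proteins, rose from 39.4, 41.4 and 32.5 CPM to 224, 267 and 242 CPM (log2 fold change 2.78, SE 0.0945, edgeR FDR = 5.44e-10). *Pappa*, which encodes PAPP-A, fell from 15.3, 7.48 and 10.2 CPM to 2.04, 2.29 and 1.61 CPM (log2 fold change -2.39, edgeR FDR = 1.61e-05). *Pappa2*, its paralogue that cleaves IGFBP3 and IGFBP5, rose from 6.16, 5.17 and 5.35 CPM to 19.8, 26.7 and 25.9 CPM (log2 fold change 2.20, edgeR FDR = 5.39e-07). These 3 genes passed the FDR in an interval where 71.1% of all genes tested did so. Of the stanniocalcins, secreted inhibitors of PAPP-A and its paralogue, *Stc1* rose (log2 fold change 1.25, edgeR FDR = 9.24e-05) and *Stc2* fell (log2 fold change -3.37, edgeR FDR = 5.64e-07). *Igfals*, which encodes the acid-labile subunit that joins IGFBP3 and IGFs in serum, rose at a low level, from 0.780, 0.632 and 0.824 CPM to 2.49, 2.44 and 2.32 CPM (log2 fold change 1.78, edgeR FDR = 3.34e-04).

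**Figure D5:**
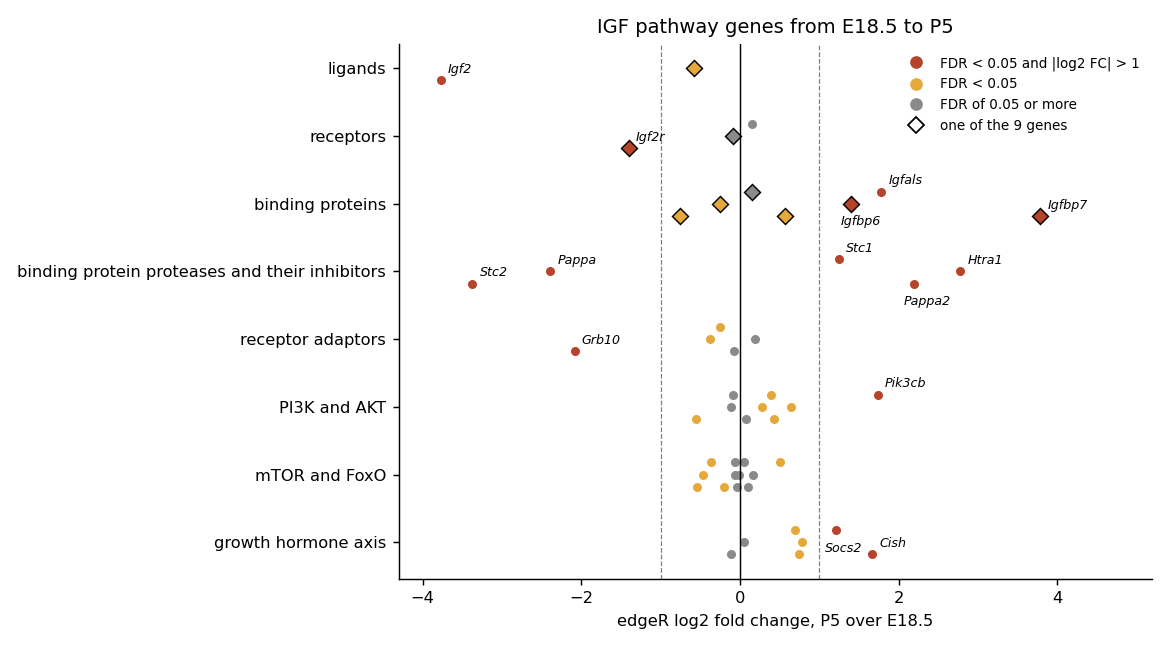
Change from E18.5 to P5 (horizontal axis, edgeR log2 fold change) of the tested genes of each IGF pathway list, coloured by the cutoffs they passed, with the 9 genes of the family as diamonds. All 5 proteases and inhibitors lie outside the dashed lines at 1 and -1, and the 12 genes of the mTOR and FoxO list lie within them.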

How the data were processed

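RNA from 12 whole mouse lungs was sequenced by the authors as paired reads, aligned to mm10 with TopHat2 2.1.1 and Bowtie2 2.3.4 and counted per Gencode gene with HTSeq 0.10.0. Whether counting used strand is not given in the sources used here. The deposited counts of 16152 expressed genes are raw, and the deposited CPM of 51825 genes divide them by mapped reads (between 48436716 and 62279460 per library). Every deposited CPM value came back as a whole read (tolerance 0.01). Groups followed the labels.

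Counts were tested in edgeR 4.0.16 (R 4.3.3), with TMM, quasi-likelihood, time-point as the only factor and genes of at least 1 CPM in 3 libraries, and FDR after Benjamini-Hochberg over all 15994 genes. The step was tested on simulated data. Alternatives used DESeq2 1.42.0, limma 3.58.1 (voom), other scalings and filters, and single libraries left out. Levels per length divided TMM-scaled counts by the union of GENCODE vM21 exons. Symbols were matched for 16136 of 16152 identifiers.

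The 9 genes and all gene lists were chosen with earlier results of these data known. Each of the 9 was named, of the pathway lists those past both cutoffs in an adjacent comparison, and by likeness the 5 nearest to *Igf1* and the 3 nearest to each other gene. Deposited splicing percentages carry no gene names or coordinates and were not used here. Intervals and p-values cover no differences between litters.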

Additional observations from a re-analysis of the deposited data

How the results depend on the processing

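Each of the 9 genes was tested again under 22 alternatives in each of 4 comparisons. The genes past both cutoffs from E18.5 to P5 (3), from P5 to P8 (2) and from E15.5 to P8 (3) were as many in every alternative that kept both cutoffs. From E15.5 to E18.5 the count was between 0 and 1 with single libraries left out, and it was 1 (*Igfbp7*) without E18.5 replicate 3 and, as an alternative chosen after seeing the data, without the 2 libraries highest in heart muscle genes. With the FDR alone the counts were 3, 7, 3 and 7. Replicate numbers link no litters between time-points, and 3 of 18 same-numbered pairs of libraries had a correlation of deviations over 0.1 (median 0.0065). With the replicate number as a block the counts of genes past both cutoffs were 0, 3, 2 and 3, and *Igfbp2* from E18.5 to P5 was not past the FDR (edgeR FDR = 0.0614).

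Signs turned only in changes that were not past the threshold, and the cause was not tested. With single libraries left out, the changes of such genes were between -0.18 and 0.0077 for *Igfbp5* in the interval E15.5 to E18.5, between -0.15 and 0.016 for *Igf1r* and between -0.010 and 0.37 for *Igfbp3* in E18.5 to P5. They were between -0.056 and 0.017 for *Igfbp4* and between -0.084 and 0.098 for *Igfbp7* in P5 to P8, and between -0.018 and 0.32 for *Igf1r* and between -0.019 and 0.44 for *Igfbp3* in E15.5 to P8. Without the heart-high libraries *Igfbp5* was at 0.023 in E15.5 to E18.5 and *Igf1r* at -0.15 in E15.5 to P8. Without the 3 thymus-high libraries, also chosen after seeing the data, *Igfbp4* was at 0.018 and *Igfbp7* at -0.19 in P5 to P8, and *Igfbp3* at -0.26 in E15.5 to P8. With at least 1 CPM in all 12 libraries *Igfbp4* was at 9.2e-04 in P5 to P8. With the longest coding transcript as the length, the share of *Igfbp7* was 3.91% at E15.5, 54.5% at P5 and 47.1% at P8. Of the 5 genes nearest to *Igf1*, 0 were shared with Spearman's rho. Genes called over all genes fell with at least 1 CPM in all 12 libraries from 487 to 161, from 4289 to 2578, from 474 to 179 and from 5174 to 3335 in the 4 comparisons. The 487 genes from E15.5 to E18.5 were 277 in limma-voom, 310 and 284 without E18.5 replicate 1 or 2 and 179 (153 higher and 26 lower, in place of 254 and 233) without the heart-high libraries. The 474 from P5 to P8 were between 198 and 309 without P5 replicate 1, 2 or 3 or P8 replicate 1 or 2, and 90 without the thymus-high libraries. Reads recovered from CPM, over 16214 genes, gave 496, 4376, 476 and 5263 genes. Library size in place of TMM moved the median of all genes from E18.5 to P5 from -0.0024 to -0.07 and from E15.5 to P5 to -0.10, and ended no call of the 9 genes. With 3 litter mates a time-point, the precision is limited by their spread. Where an exclusion leaves 1 library at a time-point, that library is assumed to vary like those of the other groups.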

Other observations

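The genes of the relay inside the cell are read against all genes tested from E18.5 to P5, of which 26.8% passed both cutoffs and, at the FDR alone, 35.4% rose and 35.7% fell. Of the 5 tested receptor adaptors, *Grb10*, an imprinted adaptor that restrains signalling from the insulin and IGF1 receptors, fell from 1472, 1384 and 1549.8 CPM to 308, 341 and 330.5 CPM (log2 fold change -2.08, SE 0.0671, edgeR FDR = 3.88e-10), and 2 more fell at the FDR alone. Of 9 PI3K and AKT genes, *Pik3cb*, the beta catalytic subunit of PI3K, rose from 13.4, 13.2 and 9.91 CPM to 41.5, 37.2 and 35.4 CPM (log2 fold change 1.73, edgeR FDR = 1.37e-07), 4 others rose and 1 fell at the FDR alone. None of the 12 mTOR and FoxO genes passed both cutoffs in edgeR, with 1 higher and 4 lower at the FDR alone. Their median log2 fold change was -0.05. An unadjusted edgeR p under 0.05 was found for 5 of the 12, against 11723 of the 15994 genes tested.

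The growth hormone axis drives *Igf1* transcription in the liver. Of its 7 listed genes, 5 were higher and none lower from E18.5 to P5 at the FDR. Over all genes tested, 35.4% rose and 35.7% fell in that interval. *Cish* and *Socs2*, feedback inhibitors induced by STAT5, passed both cutoffs. *Cish* rose from 9.40, 5.67 and 6.56 CPM to 20.02, 22.2 and 22.4 CPM (log2 fold change 1.66, edgeR FDR = 1.43e-06). *Socs2* rose from 54.9, 47.4 and 54.7 CPM to 106, 120.0 and 115 CPM (log2 fold change 1.21, edgeR FDR = 5.53e-08), while *Ghr*, the receptor, named after its values were seen, did not pass the threshold (log2 fold change -0.11, edgeR FDR = 0.338).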
